A study of Mus musculus with 6 samples.

Results

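The Zfp genes are mouse genes whose symbol begins with Zfp and a number, most of which encode zinc finger proteins. Of 347 such genes with an array probe set naming 1 gene, 280 were kept, out of 12776 genes measured in all. These members were chosen by their name and selected on their mean level over all 6 arrays, which had to exceed the 40th percentile of the probe sets' means, and a gene with several such probe sets was represented by the brightest. The difference between the groups was not part of that choice, but the family was picked with earlier results of these data known, so its counts are given as a description. The RNA came from CD4+ T cells, lymphocytes that direct other immune cells, of C57BL/6 mice, which the design text puts at 6 weeks of age. Wild-type (WT) mice were compared with mice labelled CBS-KO, described as deficient in CBS (cystathionine beta-synthase), an enzyme of the transsulfuration pathway that also makes hydrogen sulfide. Each group held 3 Affymetrix arrays, called biological replicates in the labels. The allele, the sex of the mice, the way the cells were purified and any pooling of animals were not given in the sources used here.

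Zinc finger proteins hold short loops folded around a zinc ion, and in the commonest kind, the C2H2 type, a string of fingers reads DNA. The largest C2H2 subfamily carries a KRAB domain, which recruits Trim28 (KAP1) and the histone methyltransferase Setdb1 to place repressive H3K9 methylation, mainly at transposable elements. KRAB zinc finger genes arose by repeated tandem duplication and lie in clusters of near-identical neighbours. A few Zfp genes are unlike the rest. Zfp36 and its relatives use CCCH fingers to bind AU-rich messenger RNA and bring about its decay.

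Several facts about the arrays touch every value below. Levels are log2(intensity + 16), differences are CBS-KO minus WT on that scale, and a gene was called when its limma p, adjusted over all 20856 probe sets tested, was under 0.05. Levels of different probe sets are not comparable with each other. Arrays are given in replicate order, WT before CBS-KO. Cbs itself had levels of 7.37, 7.48 and 7.19 against 7.25, 7.63 and 7.35 (limma adjusted p = 0.801), so this probe set did not separate the groups. The mean level of Y-linked genes was 9.23 in the first CBS-KO array, 9.12 in the second and 5.22 to 5.35 in the other 4, so genotype and Y-linked signal were partly confounded. All 10 measured markers of CD4+ T cells were lower in every CBS-KO array than in every WT array, and 4 were called lower. Genes of neutrophils (12 of 14), monocytes and macrophages (11 of 12), red cell precursors (9 of 9), NK cells (3 of 5: Gzma, Ncr1 and Tyrobp) and cell division (3 of 7) were called higher. In bulk samples, fewer cells of a type and less RNA per cell cannot be told apart.

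Zfp genes leaned downward in the CBS-KO arrays. Of the 280 members, 42 (15%) were called lower, where 4.45% of all 12776 genes were, and 1 (0.357%) was called higher, where 6.62% of all genes were. In 133 members (47.5%) every CBS-KO array lay below every WT array, against 22.4% of all genes, and in 16 members (5.71%) every CBS-KO array lay above, against 18.8%. The median difference was -0.23 over the members and -0.01 over all genes, and 80.7% of members against 52% of all genes had a negative difference. Single changes were modest. The called decreases ran from -1.29 to -0.41 with a median of -0.68, and 3 of the 42 reached 2-fold. At an unadjusted limma p under 0.05, 110 members were lower and 12 higher. The share of all genes at that cut-off was not worked out, so these counts have no background beside them. Replicates of the members lay close together, with a median SD of 0.11 in WT and 0.14 in CBS-KO cells, where all genes had 0.09 and 0.20.

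**Figure D1:**
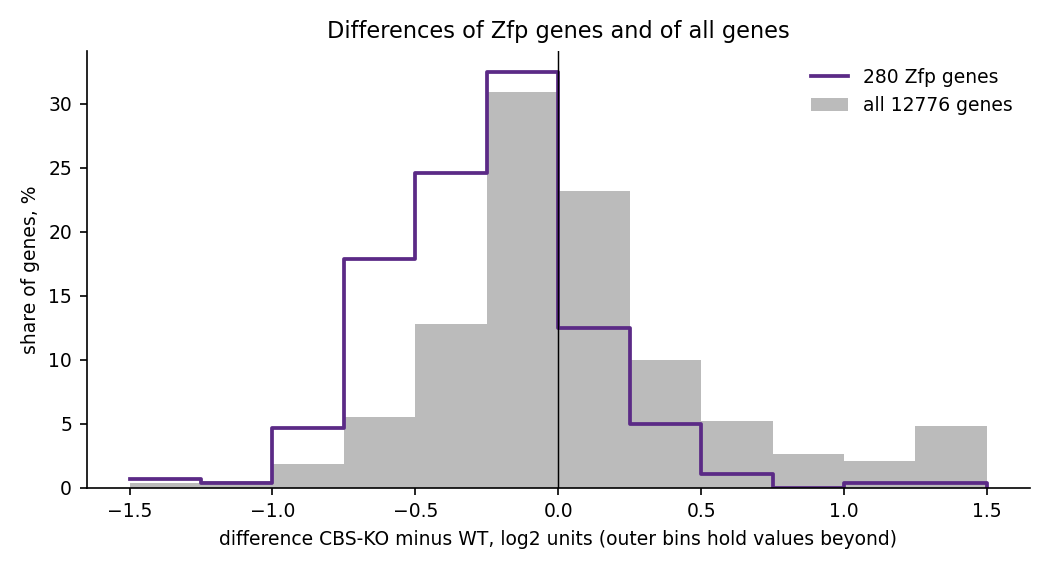
Share of genes (vertical axis, %) in each 0.25-wide bin of the difference CBS-KO minus WT (horizontal axis, log2 units) for all 12776 genes (grey bars) and the 280 Zfp genes (line); values beyond the ends are in the outer bins. Between -0.75 and -0.5 lie 17.9% of Zfp genes and 5.54% of all genes, and between 0.5 and 0.75 lie 1.07% and 5.24%.

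These counts rested on the number of arrays and on single arrays. Without WT 1 or without WT 2, 0 members were called lower, when 0.12% and 0.0911% of all tested probe sets still were. Leaving out WT 3 left 10 members called lower (3.57%, against 1.18% of all tested probe sets). Leaving out CBS-KO 1 left 2 (0.714% against 0.225%), and leaving out CBS-KO 3 left 15 (5.36% against 2.69%). Leaving out CBS-KO 2 raised the count to 85 (30.4%), when 14.5% of all tested probe sets were called lower. With the presence of Y-linked signal as a model term, 17.1% of members were called lower and 12.8% of all tested probe sets, so the gap between these shares was much smaller than without that term (15% and 4.47%). The direction of the median did not depend on 1 array. In each of the 6 fits that left out 1 array the median difference of the members was between -0.30 and -0.22. All 42 called members kept a negative difference under every alternative that tested them. In all 42 the groups did not overlap, so leaving out 1 array could not change their sign. Nor could the Y-linked term, whose estimate rests on CBS-KO 3.

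The largest called decrease was that of Zfp287, which encodes a protein with SCAN and KRAB domains. Its levels were 9.70, 9.54 and 9.52 in the WT arrays, against 8.53, 8.38 and 7.98 in the CBS-KO arrays. The groups were thus more than 1 log2 unit apart in mean, with no overlap (difference -1.29, SE 0.17, limma adjusted p = 0.0138). Zfp287 lost its call without WT 1 or WT 2 and kept it under the other 14 alternatives, with an adjusted p of 0.00623 to 0.0828 over all of them. Zfp931 had levels of 8.32, 8.31 and 8.04 in WT and 7.39, 6.36 and 7.17 in CBS-KO cells. Its CBS-KO mean of 6.97 lay just under the level filter of 6.987, and CBS-KO 2 stood lowest (-1.25, SE 0.27, limma adjusted p = 0.038). The call of Zfp931 was lost under 7 of 15 alternatives, among them every array left out but CBS-KO 2, no filter, and sex as a model term.

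Zfp456, a gene of the zinc finger cluster on chromosome 13, had levels of 9.70, 9.73 and 9.49 in WT and 8.93, 8.33 and 8.58 in CBS-KO cells (-1.02, SE 0.18, limma adjusted p = 0.0251). Zfp738, of the same chromosome, had 9.28, 9.27 and 8.99 in WT and 8.53, 8.17 and 8.20 in CBS-KO cells (-0.88, SE 0.16). In both genes the lowest WT array stayed above the highest CBS-KO array. Of the 3 probe sets of Zfp738 above the filter, all had negative differences, -0.88 (the brightest, used here), -0.94 and -0.52, with limma adjusted p of 0.026, 0.027 and 0.0587. Zfp607a, on chromosome 7, had levels of 8.95, 9.02 and 8.91 in WT and 8.32, 7.83 and 7.80 in CBS-KO cells (-0.98, SE 0.17), with CBS-KO 1 nearest to the WT arrays. Zfp40, on chromosome 17, differed by -0.87 (SE 0.12) and was tight in both groups, at 8.79, 8.59 and 8.74 in WT and 7.92, 7.75 and 7.86 in CBS-KO cells.

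Completing the 12 largest called decreases were Zfp983, Zfp418, Zfp300, Zfp654, Zfp677 and Zfp518a. Their differences ran from -0.84 to -0.77, that is 1.79-fold to 1.71-fold lower. Groups without overlap were a condition for naming these genes. Zfp518a showed the smallest spread among CBS-KO arrays of these, with levels of 10.13, 10.26 and 10.03 in WT and 9.43, 9.33 and 9.35 in CBS-KO cells. Zfp654 stood at 10.08, 9.93 and 9.87 in WT and 9.29, 9.17 and 9.03 in CBS-KO cells. Zfp719 (-0.87), Zfp119a (-0.86) and Zfp874b (-0.83), none of them called, had differences of like size with a wider spread among WT arrays (SD 0.44, 0.43 and 0.41). Each of the 12 called decreases lost its call without WT 1 and without WT 2. Without CBS-KO 1, Zfp287 and Zfp607a were the only members still called lower. Without WT 3, Zfp931, Zfp456, Zfp607a, Zfp983, Zfp300 and Zfp654 lost their call, and without CBS-KO 3, Zfp931, Zfp983, Zfp418 and Zfp677 did. With all 6 arrays kept, Zfp931, Zfp983, Zfp418 and Zfp300 lost their call with no filter, and Zfp931 and Zfp418 with the Y-linked signal as a term.

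**Figure D2:**
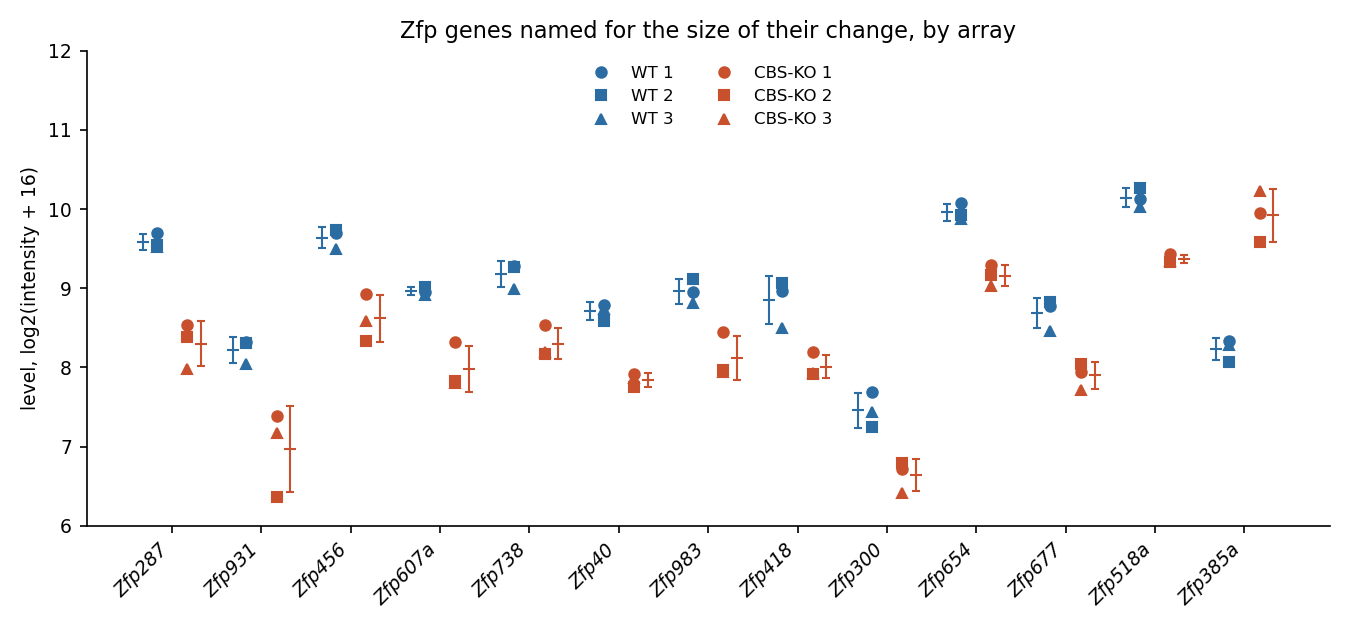
Level as log2(intensity + 16) (vertical axis) of the 12 Zfp genes with the largest called decreases and of Zfp385a, the member called higher (horizontal axis), with a point for each array (WT blue, CBS-KO orange; circle, square and triangle for replicates 1, 2 and 3) and mean ± SD (n = 3) beside the points. Groups without overlap were a condition for choosing these genes, as for Zfp287 with 9.52 to 9.70 in WT and 7.98 to 8.53 in CBS-KO cells.

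Some of the members named in the text (Zfp110, Zfp182, Zfp275, Zfp280c, Zfp367, Zfp719, Zfp119a, Zfp874b, Zfp106, Zfp708, Zfp568, Zfp831, Zfp825, Zfp395 and Zfp664) were picked after their values were seen. Among the other 30 members called lower, the differences were -0.76 (Zfp51) to -0.41 (Zfp148). Zfp148 encodes ZBP-89, a factor that binds GC-rich promoter elements, and its levels were 11.49, 11.53 and 11.34 in WT and 11.06, 11.09 and 10.98 in CBS-KO cells. This small decrease (-0.41, SE 0.09, limma adjusted p = 0.045) lost its call in 9 of 16 alternatives. They were every array left out but CBS-KO 2, a common array median, no filter, no variance trend and the replicate block. Zfp110, which encodes the neurotrophin receptor interacting factor NRIF, had 10.75, 10.70 and 10.67 in WT and 10.28, 10.27 and 10.25 in CBS-KO cells (-0.44, SE 0.09). Its call was lost with a common array median, with no filter, with the replicate block and with every array left out but CBS-KO 2. Zfp292, a very large zinc finger protein, fell from 10.81 ± 0.08 (SD, n = 3) to 10.14 ± 0.25 (-0.67, SE 0.15), with CBS-KO 2 the nearest to WT. In the 42 called members together, the lowest of the 3 CBS-KO arrays was CBS-KO 3 in 24, CBS-KO 2 in 17 and CBS-KO 1 in 1.

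Of the 4 X-linked members, 3 were among those called lower, where 15% of all members and 4.45% of all genes were. With 4 genes this is a description, and X-linked genes outside the family were not counted. Zfp300 had levels of 7.69, 7.25 and 7.43 in WT and 6.71, 6.79 and 6.41 in CBS-KO cells. Its CBS-KO mean of 6.64 lay under the level filter of 6.987. Zfp275 had 9.67, 9.49 and 9.82 against 8.97, 9.15 and 8.73. Zfp182 stood at 8.83, 8.72 and 8.59 in WT and 8.12, 8.18 and 8.07 in CBS-KO cells. In all of these the array without Y-linked signal, CBS-KO 3, was the lowest. With that signal as a term the difference rests on CBS-KO 3, so this fit cannot show whether the decreases depend on the signal. Zfp300 differed by -1.05 in that fit and by -0.82 in the main one. The call of each of the 3 genes was lost when any single WT array, or CBS-KO 1, was left out. Zfp275 and Zfp182 also lost it without CBS-KO 3 and with the replicate block. With no filter, Zfp275 and Zfp300 lost theirs. Zfp280c, the other X-linked member, overlapped between the groups (-0.18, limma adjusted p = 0.347).

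Zfp385a was the member called higher. It encodes Hzf, a haematopoietic zinc finger protein that acts with p53 and is known from megakaryocytes. Levels were 8.33, 8.07 and 8.28 in WT and 9.95, 9.58 and 10.23 in CBS-KO cells, and every CBS-KO array lay well above every WT array. The difference was 1.69 (SE 0.19, 95% confidence interval 1.24 to 2.15, limma adjusted p = 0.00937), or 3.23-fold, and the call was lost without WT 1, WT 2 or CBS-KO 1. In the 3 CBS-KO arrays the neutrophil list stood 3.46, 3.15 and 3.14 over its WT mean, and the red cell list 3.55, 2.57 and 3.87. Their part in the result was not tested. Zfp367 missed the threshold. It had 8.70, 8.60 and 8.76 in WT and 9.87, 9.17 and 10.20 in CBS-KO cells (1.06, SE 0.26, limma adjusted p = 0.0503). Its CBS-KO arrays stood in the same order as the cell division list, which stood 1.95, 0.71 and 2.33 over its WT mean, and whose part in the level of Zfp367 was not tested.

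The CCCH proteins that promote messenger RNA decay did not move together. Zfp36, which encodes tristetraprolin, had levels of 11.65, 11.35 and 11.23 in WT and 10.86, 11.29 and 10.77 in CBS-KO cells (-0.44, SE 0.18, limma adjusted p = 0.146). Zfp36l1 had 11.61, 11.49 and 11.27 against 11.03, 11.41 and 10.65 (-0.43, SE 0.20, adjusted p = 0.201). In both, CBS-KO 2 lay within the WT range and the other CBS-KO arrays below it. Without CBS-KO 2 both were called lower, Zfp36 at -0.60 (limma adjusted p = 0.0257) and Zfp36l1 at -0.62 (0.0318). Zfp36l1 was also called with the Y-linked signal as a term (-0.80, limma adjusted p = 0.0362) and stood at -0.24 without CBS-KO 3. Zfp36l2, a factor of lymphocyte quiescence, had 12.68, 12.44 and 13.12 in WT and 13.15, 13.31 and 12.95 in CBS-KO cells (0.39, SE 0.18, limma adjusted p = 0.196). Of 28 measured genes of the decay machinery these proteins work with, 2 (7.14%) were called lower and 1 higher. Over all genes 4.45% were called lower and 6.62% higher. The deadenylase gene Cnot6l differed by -0.62 (SE 0.11) and the exonuclease gene Xrn1 by -0.51 (SE 0.10), while Mapkapk2, the kinase that inactivates tristetraprolin, differed by 0.46 (SE 0.09).

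Zfp genes known for silencing imprinted genes or retroelements were not called. Zfp57, which protects methylation at imprinted regions, had levels of 6.95, 7.03 and 7.17 in WT and 7.27, 7.46 and 7.29 in CBS-KO cells (0.29, SE 0.10, limma adjusted p = 0.114). Zfp445, which serves the same function, had 10.63, 10.50 and 10.38 against 10.32, 10.19 and 10.21 (-0.26, SE 0.11, adjusted p = 0.159). The groups of these genes did not overlap, in opposite directions. Zfp809, which silences retroviruses through their primer binding site, differed by -0.30 (SE 0.11, limma adjusted p = 0.111), also without overlap. Zfp708 differed by -0.59 (SE 0.15, adjusted p = 0.0569) and Zfp568, a repressor of a placental Igf2 transcript, by 0.18 (SE 0.19).

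Genes of RNA and protein quality control gave 0 calls among 10 measured members, with a median of -0.17. Zfp598, the ubiquitin ligase that senses collided ribosomes, had 9.50, 9.46 and 9.56 in WT and 9.83, 9.52 and 9.81 in CBS-KO cells (0.22, SE 0.13, limma adjusted p = 0.312). Zfp207, a spindle and splicing factor, differed by 0.07 (SE 0.09), and Zfp451, a SUMO ligase, by -0.22 (SE 0.12). The RNA-binding Zfp106 stood higher in every CBS-KO array, at 10.51, 10.62 and 10.58 in WT and 10.97, 10.78 and 11.03 in CBS-KO cells, without passing (limma adjusted p = 0.076). Among these 10 members, 6 had groups that did not overlap, 5 of them with the CBS-KO arrays below. Every CBS-KO array lay below in 47.5% of all members and 22.4% of all genes, and above in 5.71% and 18.8%.

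Of 11 measured members on a list of lymphocyte and blood cell regulators, 2 (18.2%) were called lower (Zfp148 and Zfp292) and 1 higher (Zfp385a). Called lower were 15% of all members and 4.45% of all genes, and called higher 0.357% and 6.62%. Zfp831 had 10.76, 10.85 and 10.75 in WT and 10.11, 10.53 and 9.57 in CBS-KO cells (-0.72, SE 0.23, limma adjusted p = 0.0935), with a wide spread among the CBS-KO arrays. Zfp217 had 10.20, 10.13 and 10.26 against 9.84, 9.75 and 9.68 (-0.44, SE 0.11, adjusted p = 0.0511) and passed under 6 of 16 alternatives. Zfp335, needed for the making of naive T cells, differed by -0.13 (SE 0.13), and Zfp410, the activator of Chd4, by 0.18 (SE 0.19). Zfp281 differed by -0.42 (SE 0.17), Zfp384 by -0.15 (SE 0.11) and Zfp423 by -0.06 (SE 0.10), all with overlapping groups. Zfp318, which controls IgD splicing in B cells, had a mean difference of -0.03 (SE 0.20), with CBS-KO 2 at 9.50 above the WT range of 9.08 to 9.12 and CBS-KO 1 and 3 below it at 8.91 and 8.81. In these arrays the B cell list stood at 0.80 relative to its WT mean in CBS-KO 2, at -0.47 in CBS-KO 1 and at -1.06 in CBS-KO 3. Its part in the level of Zfp318 was not tested. The members of highest intensity gave no call, with Zfp706 at 12.47 ± 0.10 (SD, n = 3) in WT and 12.52 ± 0.04 in CBS-KO cells and Zfp652 at 11.61 ± 0.02 and 11.44 ± 0.12.

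The decreases were unevenly placed along the genome. In the RefSeq order of protein-coding genes (GRCm38.p6, used for names and neighbours), 144 members had another Zfp gene directly beside them and 135 had none, and 1 was not placed. Of those with a Zfp neighbour, 30 (20.8%) were called lower and 0 higher, with a median difference of -0.34 and 130 negative values. Of those without one, 12 (8.89%) were called lower and 1 higher, with a median of -0.17 and 95 negative values. The gap between these shares was not tested. Relative to WT, the mean of members with a Zfp neighbour was -0.28, -0.40 and -0.34 in the CBS-KO arrays, with CBS-KO 2 lowest. For members without one these were -0.13, -0.15 and -0.18.

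Chromosomes 7, 13 and 17, which carry large KRAB clusters, held 135 members, of which 26 were called lower, with a median difference of -0.34. On the other chromosomes 16 of 145 members were called lower, with a median of -0.17. Chromosome 13 had the lowest median of these, with 26 of 28 members negative, 22 with every CBS-KO array below every WT array, 8 called lower and a median difference of -0.55. Over the whole family every CBS-KO array lay below in 47.5% of members, and over all genes in 22.4%. Called lower were 15% of the whole family and 4.45% of all genes. Chromosome 17 had a median of -0.39 over 35 members, with 7 called lower. Chromosome 7 had -0.22 over 72 with 11 called lower, near the family as a whole (-0.23, 15% called lower). There were 17 runs of 3 or more members lying next to each other, with 73 members and 17 calls, all lower. In the whole family 42 members were called lower and 1 higher. The longest run, 9 genes on chromosome 13 from Zfp459 to Zfp738, held differences of -0.88 to -0.30, and in 8 of them the groups did not overlap. A run of 6 on the same chromosome, from Zfp455 to Zfp456, ran from -1.02 to -0.34, and 7 genes on chromosome 17, from Zfp677 to Zfp983, from -0.84 to -0.05. By contrast, 4 neighbours on chromosome 7 from Zfp524 to Zfp580 had -0.27 to -0.01 with 0 calls, and 5 from Zfp109 to Zfp94 had -0.34 to -0.02 with 0 calls. Neighbours in these clusters resemble each other in sequence, so part of their signal can be shared between genes, and they are not independent replicates. The probe sets that name several genes including a Zfp, which were left out of the family, numbered 36, of which 30 passed the level filter. They had a median difference of -0.25, with 4 called lower and 1 higher.

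**Figure D3:**
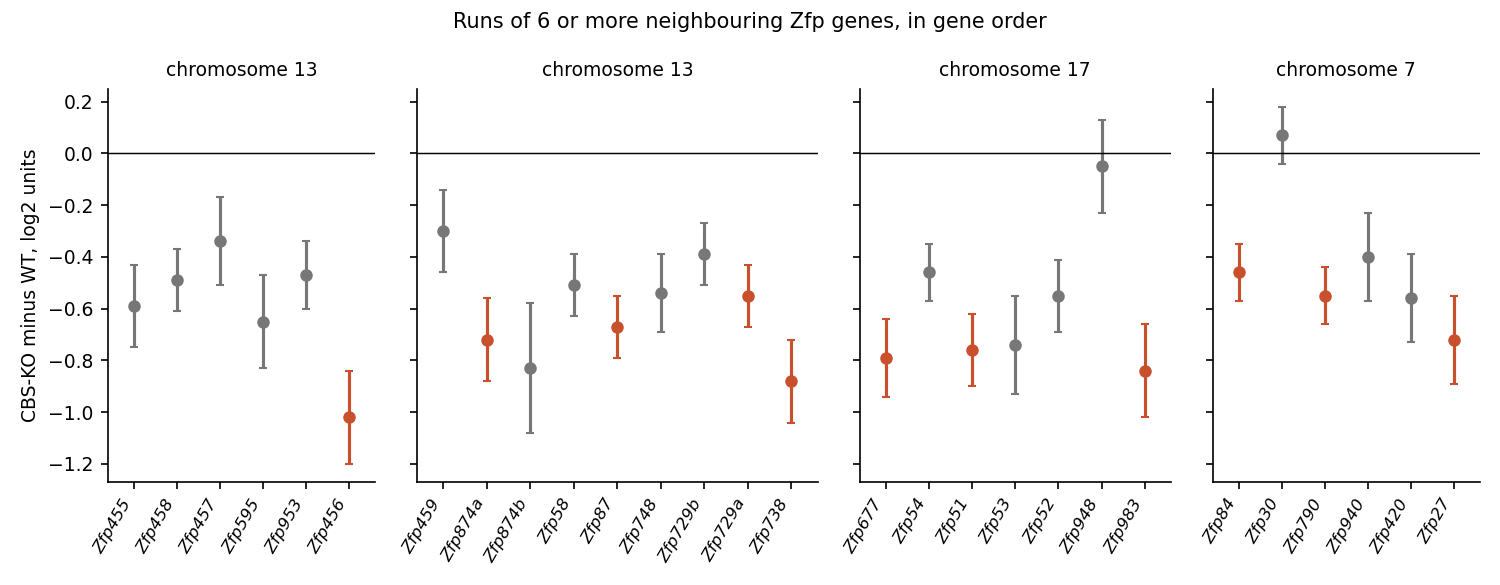
Difference CBS-KO minus WT (vertical axis, log2 units; bars are the SE from limma) for the Zfp genes in the 4 runs of 6 or more neighbours, in gene order along chromosomes 13, 13, 17 and 7; orange points were called lower. In the run of 9 on chromosome 13 every point lies between -0.88 and -0.30.

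Promoter sequence was not used in the choice of members, but its motifs were searched after the data were seen. RefSeq-derived promoter windows (GRCm38.p6, 250 bases before to 50 after the gene start, the first listed start per gene) were at hand for 232 members, 36 of them called lower. The CCAAT box, on either strand, is the letters bound by the trimeric factor NF-Y, and it was present in 27 of the 36 (75%) and in 81 of the 196 other members (41.3%). Over all 10195 tested genes with a window the share was 37.9%, and among genes outside the family it was 35.6% of the 430 called lower and 38% of the 676 called higher. The share in called genes outside the family was thus near that of all tested genes. Read the other way, members with the box had a median difference of -0.38 and 27 calls among 108, and members without it -0.23 and 9 calls among 124. Negative differences were not more frequent with the box, at 88 of 108 members with it and 107 of 124 without it. Across all tested genes the medians with and without the box were -0.00 and -0.02. Called lower were 180 of 3867 tested genes with the box and 286 of 6328 without it. Among members with a Zfp neighbour the box was in 77.8% of 27 called lower and 40.6% of 96 others. Among those without one the shares were 66.7% of 9 and 42% of 100. Of the 20 motifs searched, CCAAT had the widest gap between members called lower and other members, so its shares are a description. No test was made of these shares, and related promoters of a cluster are not independent.

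The boxes lay upstream of the gene start in all 27 genes, and 24 of the 36 boxes began within 120 bases of it. To show what they look like, the 60 bases around the box nearest to the start are given for the 6 largest called decreases that hold one, written 5′ to 3′ on the gene's strand with the box in capitals (ATTGG is the same box read from the other strand). They are chr11:62731905-62731964 (minus strand) for Zfp287, chr2:178078501-178078560 (minus) for Zfp931, chr13:67375938-67375997 (minus) for Zfp456, chr7:27860337-27860396 (plus) for Zfp607a, chr13:67683669-67683728 (minus) for Zfp738 and chr17:21650361-21650420 (plus) for Zfp983, in GRCm38.p6.
Zfp287: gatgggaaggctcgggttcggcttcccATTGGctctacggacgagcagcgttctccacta
Zfp931: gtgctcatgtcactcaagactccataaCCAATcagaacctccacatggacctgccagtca
Zfp456: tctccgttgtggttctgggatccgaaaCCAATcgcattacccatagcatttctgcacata
Zfp607a: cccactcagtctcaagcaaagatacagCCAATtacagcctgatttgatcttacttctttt
Zfp738: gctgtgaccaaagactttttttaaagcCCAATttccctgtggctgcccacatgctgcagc
Zfp983: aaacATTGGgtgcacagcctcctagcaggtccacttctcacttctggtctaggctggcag
The box began 41 bases before the start in Zfp287 and 108 in Zfp931, whose promoter held 2 boxes upstream. In Zfp456, Zfp607a, Zfp738 and Zfp983 it lay further out, 207, 221, 189 and 246 bases before the start. A match is a description of the letters and not of binding.

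The same windows differed in base composition. Median GC content was 52.5% in the members called lower, 56.8% in the other members and 60.7% in all tested genes, and the median number of CpG sites was 10, 16 and 20. The part of base composition in the box shares was not tested. The GC box GGGCGG, read by SP and KLF factors, was in 30.6% of members called lower, 50% of the others and 62.6% of all tested genes. The ETS core GGAAGT was in 47.2%, 37.8% and 28.7%. The TATA box TATAAA was in 13.9%, 5.61% and 7.46%. Shares of the E box CACGTG were 8.33%, 7.65% and 10%, of the CREB core TGACGT 11.1%, 14.8% and 11.6%, and of the GATA core GATAAG 5.56%, 5.1% and 5.05%. The core ACTACAAT of the ZNF143 motif was in 0 of 36 members called lower, in 5.1% of the others and in 1.07% of all tested genes. All motifs were searched on both strands.

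**Figure D4:**
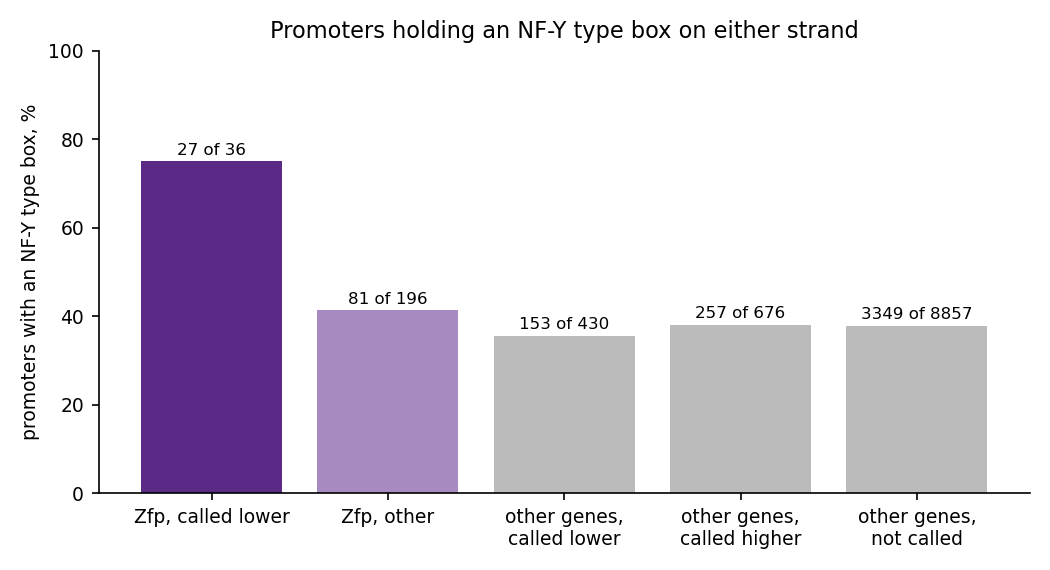
Share of promoter windows that hold the CCAAT box on either strand (vertical axis, %), in Zfp genes called lower, other Zfp genes, and genes outside the family called lower, called higher or not called; the counts stand above the bars. The bar of Zfp genes called lower is at 75% and the other bars lie between 35.6% and 41.3%. This motif is shown because it had the widest gap between Zfp genes called lower and other Zfp genes among 20 searched.

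The genes of the repressor machinery that KRAB proteins recruit were measured too. Of 33 measured partner genes, 3 (9.09%) were called lower and 0 higher, against 4.45% and 6.62% of all genes. The median difference was -0.01, the same as over all genes. Trim28, the scaffold itself, had levels of 11.23, 11.22 and 11.45 in WT and 11.71, 11.48 and 11.99 in CBS-KO cells (0.43, SE 0.15, limma adjusted p = 0.107). Setdb1, the methyltransferase, differed by 0.12 (SE 0.14). Neither passed, and both point estimates were positive while most Zfp genes were negative. The partners that fell were Tasor, a subunit of the HUSH silencing complex (-0.76, SE 0.13, limma adjusted p = 0.0246), Chd3, a chromatin remodeller (-0.74, SE 0.17, 0.0476), and Atrx, a remodeller of heterochromatin (-0.45, SE 0.10, 0.0384).

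A downward lean was also seen in some other zinc finger families, but not in all. Called lower were 18.8% of Zscan and Zkscan genes and 2.44% of Zbtb genes, against 15% of Zfp members and 4.45% of all genes. The median over the Zfp members was -0.23. Of 16 measured Zscan and Zkscan genes, which pair fingers with a SCAN domain, 3 were called lower and 0 higher (median -0.23). They were Zscan2 (-0.85, SE 0.13), Zkscan7 (-0.71, SE 0.11) and Zscan29 (-0.65, SE 0.12). Of 41 Zbtb genes, which carry a BTB domain and include many lymphocyte regulators, Zbtb37 was called lower, from 9.50 ± 0.11 (SD, n = 3) to 8.50 ± 0.25, and Zbtb46, a gene of dendritic cells, higher (0.56, SE 0.12), with a median of -0.20 and 31 negative values. Of 14 Klf genes, 0 were called lower and 2 higher (median 0.23), and of 15 Zc3h genes, 0 were called either way (median -0.13). Whether the families differ was not tested.

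By array, the mean of all 280 members relative to the WT mean was 0.06, 0.01 and -0.07 for WT, and -0.21, -0.28 and -0.26 for CBS-KO. All CBS-KO arrays were therefore below all WT arrays, and close to each other. Over all genes the CBS-KO means were 0.10, 0.04 and 0.13. The CD4+ T cell markers spread more, with -0.68, -0.35 and -1.06, and had their smallest drop in CBS-KO 2, where the Zfp mean was lowest. The part of these lists in the Zfp result was not tested.

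**Figure D5:**
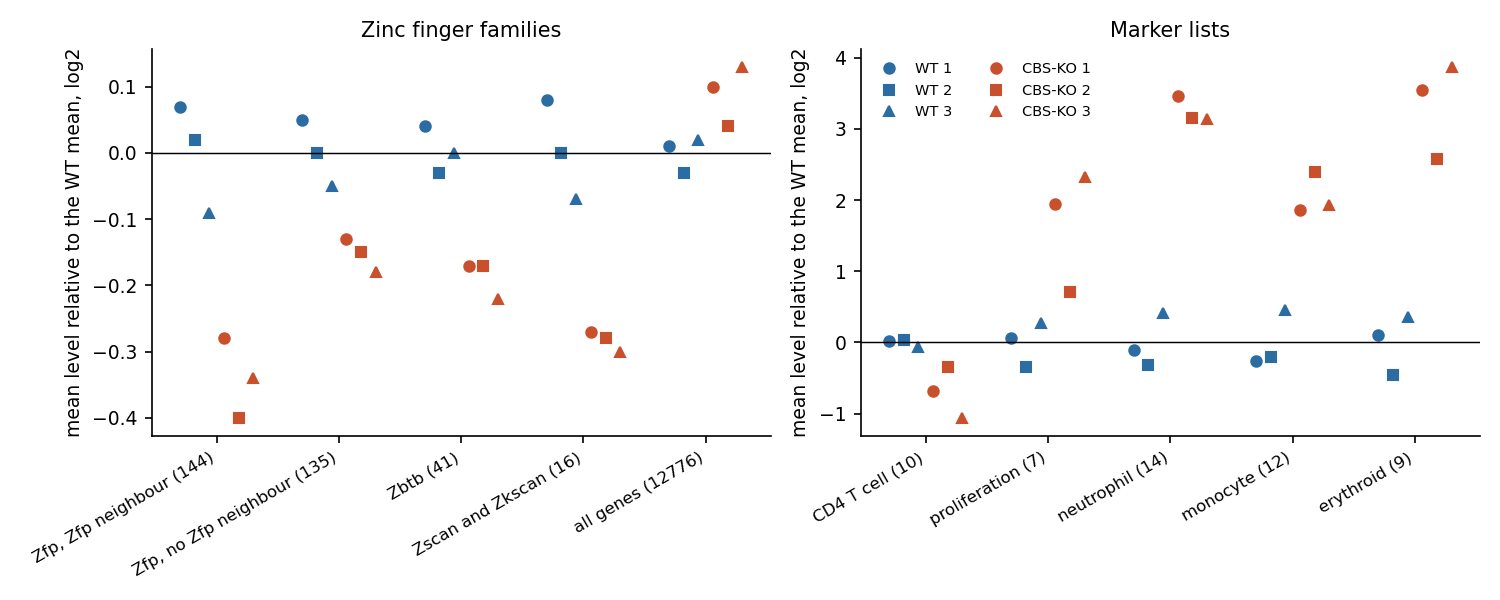
Mean level relative to the WT mean (vertical axes, log2 units) in each array for zinc finger families and all genes (left) and for marker lists (right), with the number of genes in parentheses; WT blue, CBS-KO orange, and circle, square and triangle for replicates 1, 2 and 3. The Zfp genes with a Zfp neighbour lie at -0.28 to -0.40 in CBS-KO arrays, and the vertical scales of the panels differ.

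Not every Zfp gene took part in the count. The 67 genes below the level filter had a median difference of 0.00, with 32 negative. At the filter of 6.987, Zfp78 (mean level 6.988, difference -0.34) and Zfp867 (7.013, -0.54) lay just inside, and Zfp560 (6.976, -0.49) and Zfp334 (6.953, -0.13) just outside. The WT mean lay above the filter in all 280 members and the CBS-KO mean below it in 6, of which 3 were called lower (Zfp931, Zfp300 and Zfp273). Of 7 members with several probe sets above the filter, Zfp825 had 1 called lower (-0.66) and 1 not called (-0.23, limma adjusted p = 0.508), and the signs differed in Zfp395 (-0.10 and 0.16) and Zfp664 (-0.37 and 0.03), none of these called.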

How the data were processed

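The authors deposited 1 linear intensity per probe set and array, for 34760 probe sets. How background was corrected and arrays were normalized and summarised is not given in the sources used, and the scale was read from the values. Per the labels' protocols, biotinylated cRNA was made from total RNA by the Affymetrix protocol. Genes were named from the platform annotation, and all 280 members matched a RefSeq gene by identifier with 0 changed symbols.

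Values were log2(intensity + 16), and probe sets above the 40th percentile of mean level were tested in R 4.3.3 by limma 3.58.1 (moderated statistics with a mean-variance trend, two-sided, Benjamini-Hochberg over 20856 probe sets, threshold 0.05). Family counts use the brightest probe set naming 1 gene. The labels call the replicates biological but do not say that each came from another mouse, so p-values measure the spread between these arrays, and 3 per group limit precision. Named genes were the 12 largest called changes each way without overlap, the brightest 5 members, a fixed list, and up to 4 called genes of each other list. The members, lists and rules were chosen with earlier results of these data known. The promoter analysis was added after the data were seen: 20 motifs were searched, the 8 spelled out in the text, with the ETS forms CTTCCG and CCGGAAGT and also TTCCGG (which overlap GGAAGT), the NRF1 forms GCGCATGC and CGCATGCG and also TGCGCA, the full CREB site TGACGTCA, the YY1 forms AAGATGGC and AAAATGGC and also ATGGCG, the palindrome TCGCGAGA and the E box CAGCTG, of which CCAAT had the widest gap between members called lower and other members. Plots came from Python 3.11.15 and matplotlib 3.10.9.

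The results were recomputed with arrays quantile normalized or set to a common median, without the level filter or with a 60th percentile filter, with an offset of 1 or 64, without the variance trend, with the replicate number as a block, with probe sets averaged per gene, with presence of Y-linked signal as a term, and without each array in turn.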

Additional observations from a re-analysis of the deposited data

How the results depend on the processing

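The count of members called lower, 42, was 17 with no filter and 66 with probe sets averaged per gene, when the number of tests also changed, and 0 to 85 when 1 array was left out. The count called higher, 1, was 2 under quantile normalization, a common array median, the 60th percentile filter, an offset of 1, no variance trend and the replicate block, 3 with averaged probe sets, 5 with the sex term, and 0 to 11 when 1 array was left out. The median difference of -0.23 was -0.26 under quantile normalization, -0.20 with a common array median, -0.28 with the 60th percentile filter, -0.26 with the sex term, and -0.30 to -0.22 when 1 array was left out. Of the 42, 25 remained called with the replicate block, when 29 members were called lower, and 29 with the sex term, when 17.1% of members and 12.8% of all tested probe sets were called lower and whose estimate rests on CBS-KO 3. With the block, Zfp300 kept its call among the 3 X-linked members and Zfp275 and Zfp182 lost theirs. The replicate numbers gave correlations of deviations of 0.063, 0.158 and 0.108 for same-numbered arrays. Every array correlated best with its own number, a hint from the data and not the design, and the numbers were not taken as pairs. Zfp318 changed sign with a common array median (0.00), without CBS-KO 1 and without CBS-KO 3 (range -0.24 to 0.10 over arrays left out), as did Zfp423 without CBS-KO 1 (range -0.11 to 0.01). Of the 42, 13 kept their call under every alternative that used all 6 arrays and tested them, and 0 under all 16. The causes of these shifts were not tested.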
